A study of Mus musculus with 8 samples.

Results

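The genes described here encode the interstitial matrix and the TGF-beta system that controls it: collagens, elastic fibre and matricellular proteins, small proteoglycans, crosslinking enzymes, proteases with their inhibitors, and the TGF-beta ligands and receptors. They were taken from a list of 49 gene symbols, each represented by the single-symbol probe set with the highest mean over 8 arrays. Of the 49, 47 were measured among 22180 genes in all. Fbn1, the main microfibril protein, and Loxl2, a lysyl oxidase relative, had no such probe set and were not analysed. All values are RMA log2 expression values, so a difference of 1 is a doubling. The mean over all arrays lay above the median gene mean of 4.92 for 32 of the 47 genes. The other 15 lay below it and are called dim here.

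RNA came from kidney glomeruli of mice aged 13 weeks, with 1 Affymetrix array per sample. The Tln1 VPA group (3 arrays) and the Tln1 vehicle group (3 arrays) carried the genotype Tln1 Pod-rtTA TetO-Cre, and 2 arrays came from mice whose genotype is given only as control. By its name, the line expresses a doxycycline-dependent Cre in podocytes, the epithelial cells of the filtration barrier, and acts on Tln1, the gene of the integrin-actin linker talin 1. All groups, the controls included, received doxycycline for 3 weeks, starting at 8 weeks of age. The Tln1 groups then received valproic acid, a histone deacetylase inhibitor, or vehicle for 2 weeks. The labels list doxycycline alone for the controls, so genotype and vehicle cannot be told apart in comparisons with control. They do not say that arrays stand for separate animals, so the p values reflect variation among these arrays, part of which may be technical.

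TGF-beta is secreted in a latent complex that is held in the matrix by binding proteins and released by integrins and thrombospondin. The active ligand signals through paired type I and type II receptors and raises the synthesis of collagens, fibronectin and protease inhibitors. In the kidney this programme is known from scarring of glomeruli and of the interstitium. Fibrillar collagens, lumican and decorin are largely products of fibroblasts, whereas biglycan, fibronectin and thrombospondin are also made by mesangial cells, and vimentin and Sparc are abundant in podocytes.

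Tln1, the targeted gene, had 8.76, 8.88 and 8.59 on Tln1 VPA 1 to 3, 8.95, 8.95 and 8.60 on Tln1 vehicle 1 to 3, and 8.97 and 8.64 on control 1 and 2. The groups overlapped, with differences of 0.03 for Tln1 vehicle against control (SE 0.17, limma adjusted p = 1) and -0.06 for Tln1 VPA against control (SE 0.17, limma adjusted p = 1). The genotype labels are therefore not checked by this gene's level: where its probes lie relative to the part removed by Cre is not given in the sources used here. The arrays stood apart in 2 sets that cut across the groups. The first set held 5 arrays (Tln1 VPA 1 and 2, Tln1 vehicle 1 and 2, control 1) and the second 3 (Tln1 VPA 3, Tln1 vehicle 3, control 2). Arrays of one set correlated at 0.990 to 0.995 over genes, and arrays of different sets at 0.966 to 0.979. Of 13 measured podocyte markers all lay above the median gene mean, as did all 16 proximal tubule markers, so tubular transcripts were present as well. The mean of the podocyte markers was 8.24 in Tln1 VPA 3, 8.54 in Tln1 vehicle 3 and 8.82 in control 2, and ranged from 7.03 to 7.68 on the first-set arrays. That of the proximal tubule markers went the other way, at 10.76, 10.71 and 11.28 on the same 3 arrays and 11.74 to 12.09 on the first-set arrays. The mean of 3 Y-linked genes was 4.85, 5.83 and 2.56 on Tln1 VPA 1 to 3, 5.77, 7.0 and 2.72 on Tln1 vehicle 1 to 3, and 3.57 and 2.70 on control 1 and 2. Differences are therefore also given within each set, though the second set offers a single array for each group and the first a single control array. On that control array the Y-linked mean was lower than on any first-set Tln1 array. In first-set comparisons with control this cannot be told apart from the group. The Y-linked mean was also lower on Tln1 VPA 1 and 2 than on the Tln1 vehicle array of the same number, though Tln1 VPA 2 exceeded Tln1 vehicle 1. Its part in the differences between Tln1 VPA and Tln1 vehicle was not tested. In these bulk samples, fewer cells of a type and less RNA per cell cannot be told apart.

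The comparison of Tln1 VPA with Tln1 vehicle asked what valproic acid changed in the matrix programme after the genetic change in podocytes. Fibronectin, the TGF-beta induced protein Tgfbi, the crosslinking enzyme Loxl1 and the protease inhibitor Timp1 were the members with the smallest p, and all 4 were higher with valproic acid. Type I collagen chain Col1a1 and the calcium-binding protein S100a6 were also higher on every Tln1 VPA array than on any Tln1 vehicle array. The TGF-beta ligands and receptors themselves showed no such separation. No member passed over all genes in limma (adjusted p = 1 for each), and none of the 22180 genes did (0% of all genes).

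At an unadjusted p below 0.05, 4 of the 47 members were higher and 0 were lower, where 0.834% of all genes were higher and 0.428% lower by the same measure (1.26% in both directions). The arrays did not overlap for 5 members that were higher with valproic acid (1.98% of all genes) and for 1, Col15a1, that was lower (1.57% of all genes, and 3.55% in either direction). Tgfbi and Col1a1 were higher by at least 0.5 in both array sets, a measure chosen after the values were seen that 0.302% of all genes met upward, 0.194% downward and 0.496% in all. In all, 28 of the 47 members were higher, where 51.3% of all genes were. The median difference was 0.08 over the members and 0.00 over all genes. With the replicate number as a block, 8 members and 3.06% of all genes had an unadjusted p below 0.05, and once the array set was a block, 10 members and 5.43% of all genes did. The count of 4 became 2 without Tln1 VPA 1 (0.789% of all genes), 2 without Tln1 VPA 3 (1.80% of all genes) and 7 without Tln1 vehicle 3 (2.99% of all genes). The median difference of the members ranged from -0.04 without Tln1 vehicle 2 to 0.19 without Tln1 vehicle 3, where that of all genes was 0.03 and -0.04, and it was 0.05 without Tln1 vehicle 1, 0.12 without Tln1 VPA 2 and 0.02 without Tln1 VPA 3.

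Fibronectin, encoded by Fn1, is the glycoprotein on which other matrix proteins and latent TGF-beta are assembled. Fn1 stood at 6.05, 5.63 and 5.57 on Tln1 VPA 1 to 3, against 4.88, 4.50 and 5.29 on Tln1 vehicle 1 to 3. All 3 Tln1 VPA arrays were above all 3 Tln1 vehicle arrays, and Tln1 VPA 3 and Tln1 vehicle 3 came closest. The difference was 0.86 (SE 0.24, limma unadjusted p = 0.00725, adjusted p = 1, and 0.204 to 1 over 19 alternatives). It was 1.15 in the first array set and 0.27 in the second, and 0.66 to 1.06 when single arrays were left out.

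Tgfbi encodes a secreted protein, induced by TGF-beta, that binds collagens and integrins. Its values were 6.64, 6.02 and 7.33 on Tln1 VPA 1 to 3, against 5.71, 5.58 and 6.25 on Tln1 vehicle 1 to 3. Each Tln1 VPA array was higher than the Tln1 vehicle array of the same number, while the groups overlapped because Tln1 vehicle 3 exceeded Tln1 VPA 2. The difference was 0.82 (SE 0.32, limma unadjusted p = 0.0368, adjusted p = 1, and 0.339 to 1 over 19 alternatives), with 0.69 within the first array set and 1.08 in the second. Without Tln1 VPA 3 it was 0.49.

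Among the crosslinking enzymes, Loxl1, a lysyl oxidase relative needed for elastic fibre upkeep, stood at 5.75, 5.52 and 5.55 on Tln1 VPA 1 to 3, against 5.19, 5.23 and 4.48 on Tln1 vehicle 1 to 3. The groups did not overlap, and Tln1 vehicle 3 was the lowest of all 8 arrays. The difference was 0.64 (SE 0.21, limma unadjusted p = 0.0176, adjusted p = 1, and 0.288 to 1 over 19 alternatives), with 0.42 within the first array set and 1.07 in the second. It was 0.39 without Tln1 vehicle 3. Lox, the founding member of the family, did not share this pattern: it had 4.37, 3.71 and 4.63 on Tln1 VPA 1 to 3, against 4.35, 4.37 and 4.45 on Tln1 vehicle 1 to 3.

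Timp1, which inhibits matrix metalloproteinases, was dim, and set the Tln1 VPA arrays apart. It had 4.02, 4.33 and 4.11 on Tln1 VPA 1 to 3, 3.79, 3.95 and 3.70 on Tln1 vehicle 1 to 3, and 3.49 and 3.74 on control 1 and 2. Every Tln1 VPA array lay above every other array. Tln1 VPA exceeded Tln1 vehicle by 0.34 (SE 0.14, limma unadjusted p = 0.0393, adjusted p = 1, and 0.298 to 1 over 18 alternatives), with 0.30 within the first array set and 0.41 in the second. The other inhibitors had no such order: Timp2 averaged 8.33 ± 0.57 in Tln1 VPA and 8.35 ± 0.51 in Tln1 vehicle (SD, n = 3 each), and Timp3 had 12.15, 12.27 and 11.58 on Tln1 VPA 1 to 3, against 12.33, 12.41 and 11.75 on Tln1 vehicle 1 to 3.

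**Figure D1:**
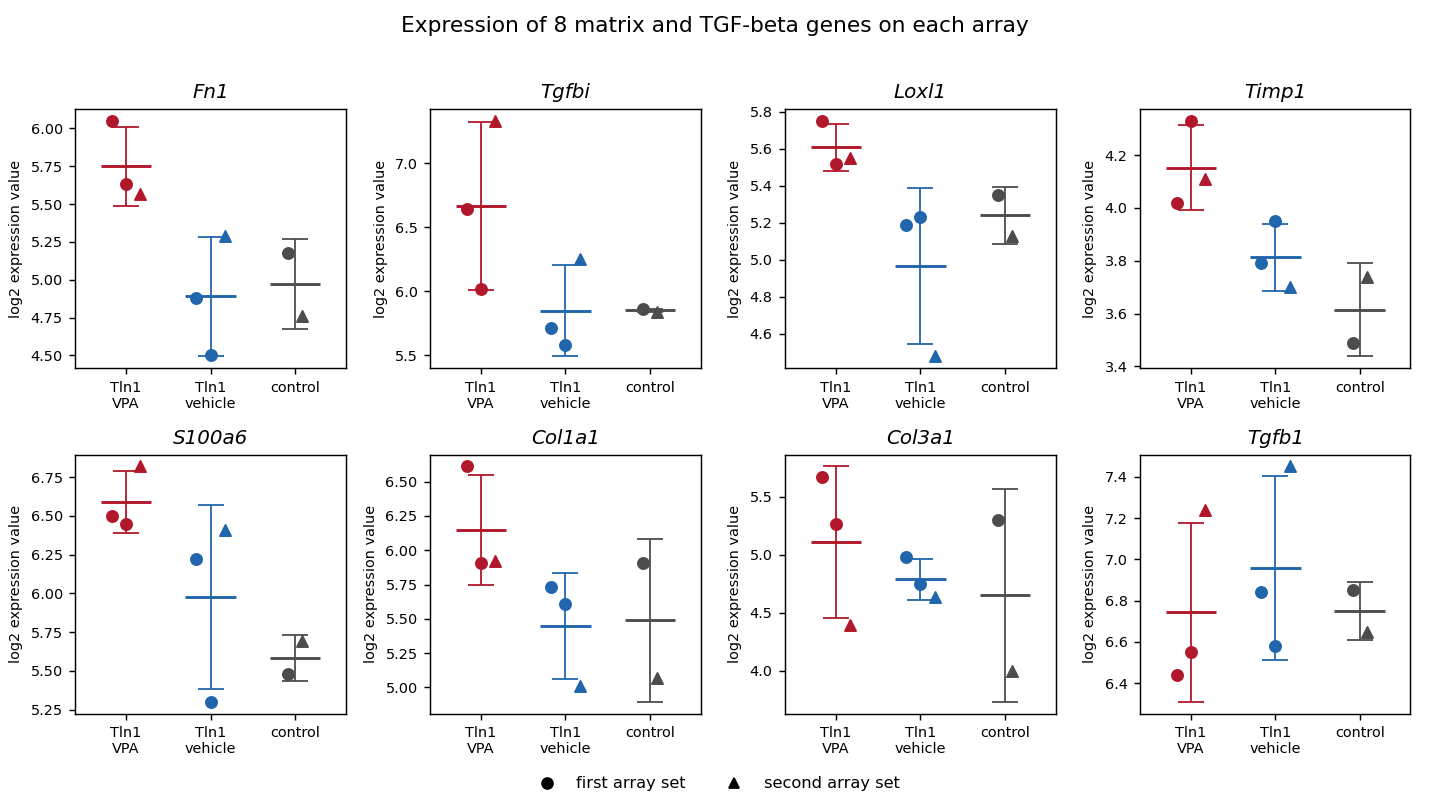
Log2 expression value (vertical axis, scaled per gene) of 8 genes on each array, by group. Circles are arrays of the first set and triangles of the second, horizontal lines are group means and error bars 1 SD. For Fn1, Loxl1, Timp1, S100a6 and Col1a1 all Tln1 VPA arrays lie above all Tln1 vehicle arrays, whereas Col3a1 and Tgfb1 overlap.

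The 5' flanks of the genes with the smallest p in a comparison with Tln1 VPA were read from RefSeq promoter windows, which run from 250 bases before to 50 after a start. The table held windows for 32 of the 47 measured members, and of the genes with the smallest p it held those of Timp1, Tgfbi and S100a6. All 3 were higher in Tln1 VPA. Tgfbi had an unadjusted limma p below 0.05 against Tln1 vehicle only, S100a6 against control only, and Timp1 against both. Capitals mark matches, on either strand, to the AP-1 site TGANTCA, to CAGAC, the core of the Smad-binding CAGA box, and to the GC box GGGCGG.
Timp1 (GRCm38.p6, chrX:20869916-20870215, + strand): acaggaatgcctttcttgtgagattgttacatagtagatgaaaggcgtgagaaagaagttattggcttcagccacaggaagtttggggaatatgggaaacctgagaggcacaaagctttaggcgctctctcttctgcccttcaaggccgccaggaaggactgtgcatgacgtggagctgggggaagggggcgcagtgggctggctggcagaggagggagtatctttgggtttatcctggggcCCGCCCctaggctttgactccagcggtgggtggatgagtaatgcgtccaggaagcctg
Tgfbi (GRCm38.p6, chr13:56609336-56609635, + strand): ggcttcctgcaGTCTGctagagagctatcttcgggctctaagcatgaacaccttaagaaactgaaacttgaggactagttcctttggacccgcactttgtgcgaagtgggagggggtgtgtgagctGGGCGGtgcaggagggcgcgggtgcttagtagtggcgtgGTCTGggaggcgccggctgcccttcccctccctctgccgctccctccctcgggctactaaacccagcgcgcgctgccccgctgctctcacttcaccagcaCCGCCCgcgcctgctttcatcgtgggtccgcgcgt
S100a6 (GRCm38.p6, chr3:90612644-90612943, + strand): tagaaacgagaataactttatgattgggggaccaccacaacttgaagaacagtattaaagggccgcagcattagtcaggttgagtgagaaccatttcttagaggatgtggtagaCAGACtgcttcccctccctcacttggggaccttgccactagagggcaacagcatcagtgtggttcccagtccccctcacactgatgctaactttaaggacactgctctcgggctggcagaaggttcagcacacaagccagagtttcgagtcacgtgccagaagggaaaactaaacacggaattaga
The Timp1 window held 1 GC box, the Tgfbi window held 2 CAGAC and 2 GC box matches, and the S100a6 window held 1 CAGAC match. No match to TGANTCA was present in these 3 windows, and no matches overlapped. Sites that depart from these letters, such as tgagtaa in the Timp1 window, were not searched for. CAGAC was present in 62.5% of 40 windows of the members and in 49.6% of all 32851 windows, the GC box in 50% and 35.7%, and TGANTCA in 5% and 7.81%. These are letter matches and were not tied to binding here.

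Of the 5 fibrillar collagens, 4 were higher with valproic acid, where 51.3% of all genes were. Their median difference was 0.20, and none had an unadjusted p below 0.05. Col1a1, the major chain of type I collagen, stood at 6.61, 5.91 and 5.92 on Tln1 VPA 1 to 3, against 5.73, 5.61 and 5.01 on Tln1 vehicle 1 to 3. The groups did not overlap, and the difference was 0.70 (SE 0.31, limma unadjusted p = 0.0535, adjusted p = 1, and 0.438 to 1 over 19 alternatives). It was 0.59 within the first array set and 0.91 in the second. Col1a2, the partner chain of the same trimer, had 6.32, 6.39 and 6.91 on Tln1 VPA 1 to 3, against 6.65, 6.25 and 7.06 on Tln1 vehicle 1 to 3, with 5.61 and 7.28 on control 1 and 2. Its groups overlapped, and the controls spanned the whole range of the Tln1 arrays.

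Col3a1, the chain of type III collagen, had 5.67, 5.26 and 4.39 on Tln1 VPA 1 to 3, against 4.98, 4.75 and 4.63 on Tln1 vehicle 1 to 3. Its difference of 0.33 (SE 0.40, limma unadjusted p = 0.444, adjusted p = 1, and 0.523 to 1 over 18 alternatives) was 0.61 within the first array set and -0.24 in the second. It was 0.04 without Tln1 VPA 1 and 0.68 without Tln1 VPA 3. Of the chains of type V collagen, which starts fibrils, Col5a1 averaged 5.07 ± 0.42 in Tln1 VPA and 5.07 ± 0.27 in Tln1 vehicle, and Col5a2 averaged 5.37 ± 0.33 in Tln1 VPA and 5.17 ± 0.26 in Tln1 vehicle (SD, n = 3 each).

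Of the 8 non-fibrillar collagens, 7 were higher with valproic acid, where 51.3% of all genes were. None had an unadjusted p below 0.05, and the median difference was 0.14. The exception in direction was Col15a1, a basement membrane zone collagen. It had 4.85, 4.78 and 4.74 on Tln1 VPA 1 to 3, against 5.03, 4.99 and 5.20 on Tln1 vehicle 1 to 3. Its groups did not overlap, and the difference was -0.20 within the first array set and -0.46 in the second. Among the beaded-filament chains, Col6a1 averaged 5.39 ± 0.31 in Tln1 VPA and 5.14 ± 0.39 in Tln1 vehicle, Col6a2 averaged 5.67 ± 0.01 in Tln1 VPA and 5.48 ± 0.38 in Tln1 vehicle, and Col6a3 averaged 5.07 ± 0.08 in Tln1 VPA and 5.05 ± 0.07 in Tln1 vehicle (SD, n = 3 each). Col8a1, a short-chain collagen, averaged 6.87 ± 0.75 in Tln1 VPA and 6.64 ± 0.58 in Tln1 vehicle, and Col18a1, the endostatin precursor of basement membranes, 7.87 ± 0.27 in Tln1 VPA and 7.79 ± 0.36 in Tln1 vehicle (SD, n = 3 each). The fibril-associated chains were dimmer: Col12a1 averaged 4.71 ± 0.10 in Tln1 VPA and 4.64 ± 0.40 in Tln1 vehicle, and Col14a1 4.09 ± 0.20 in Tln1 VPA and 3.83 ± 0.26 in Tln1 vehicle (SD, n = 3 each).

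S100a6, a small calcium-binding protein of proliferating and mesenchymal cells, had 6.50, 6.45 and 6.82 on Tln1 VPA 1 to 3, against 6.22, 5.30 and 6.41 on Tln1 vehicle 1 to 3. The groups met closely, with Tln1 VPA 2 just above Tln1 vehicle 3. S100a6 differed by 0.61 (limma unadjusted p = 0.0641), with 0.71 in the first array set and 0.40 in the second. Its relative S100a4, used as a fibroblast marker, was dim and overlapped between the groups, at 3.64 ± 0.61 in Tln1 VPA and 3.66 ± 0.36 in Tln1 vehicle (SD, n = 3 each). Vimentin, the intermediate filament of mesenchymal cells and podocytes, averaged 9.93 ± 0.60 in Tln1 VPA and 10.04 ± 0.83 in Tln1 vehicle (SD, n = 3 each).

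Of the remaining matricellular proteins and proteoglycans, Mgp and Dcn differed more in the first array set than in the second. Mgp, an inhibitor of calcification, had 7.95, 7.39 and 7.88 on Tln1 VPA 1 to 3, against 7.03, 7.02 and 7.69 on Tln1 vehicle 1 to 3. Dcn, whose product decorin binds collagen and TGF-beta, had 6.42, 5.88 and 6.39 on Tln1 VPA 1 to 3, against 5.60, 5.09 and 6.31 on Tln1 vehicle 1 to 3. For Mgp the within-set differences were 0.65 and 0.19, and for Dcn 0.81 and 0.08. Tnc, encoding tenascin C, had 5.11, 5.24 and 4.20 on Tln1 VPA 1 to 3, against 4.95, 4.86 and 3.66 on Tln1 vehicle 1 to 3, higher within both sets by 0.27 and 0.53. Postn, Lum and Vcan, the genes of periostin, lumican and versican, had group means between 2.73 and 3.15 and were among the dimmest members. Sparc, a collagen-binding matricellular protein, averaged 9.46 ± 0.55 in Tln1 VPA and 9.35 ± 0.65 in Tln1 vehicle (SD, n = 3 each). The thrombospondin gene Thbs1, whose product activates latent TGF-beta, averaged 8.57 ± 0.11 in Tln1 VPA and 8.73 ± 0.43 in Tln1 vehicle, and Bgn, the gene of biglycan, a proteoglycan of mesangial matrix, 9.49 ± 0.29 in Tln1 VPA and 9.38 ± 0.56 in Tln1 vehicle (SD, n = 3 each).

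The ligands and receptors were nearly level between Tln1 VPA and Tln1 vehicle, with 1 of 5 higher and a median difference of -0.04. Tgfb1, the ligand most tied to renal scarring, had 6.44, 6.55 and 7.24 on Tln1 VPA 1 to 3, against 6.84, 6.58 and 7.45 on Tln1 vehicle 1 to 3. Each Tln1 VPA array was below the Tln1 vehicle array of its number, by less than the spread within the groups. The difference was -0.21 (SE 0.28, limma unadjusted p = 0.471, adjusted p = 1, and 0.588 to 1 over 19 alternatives), and 0.04 without Tln1 vehicle 3. Tgfb2 averaged 4.75 ± 0.45 in Tln1 VPA and 4.84 ± 0.66 in Tln1 vehicle, and Tgfb3 averaged 5.0 ± 0.31 in Tln1 VPA and 5.03 ± 0.26 in Tln1 vehicle (SD, n = 3 each). The type I receptor Tgfbr1 averaged 7.20 ± 0.03 in Tln1 VPA and 7.03 ± 0.16 in Tln1 vehicle, and the type II receptor Tgfbr2 averaged 7.96 ± 0.08 in Tln1 VPA and 8.00 ± 0.12 in Tln1 vehicle (SD, n = 3 each).

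Latent TGF-beta binding proteins and elastic fibre genes were close between the groups as well. The median difference over Ltbp1, Ltbp2, Eln, Fbln2 and Fbln5 was -0.07, and none had an unadjusted p below 0.05. The latency proteins Ltbp1 and Ltbp2 differed by -0.12 and -0.07, elastin (Eln) by 0.08, and the fibulins Fbln2 and Fbln5 by -0.15 and 0.02. Among the proteases, the gelatinase gene Mmp2 averaged 4.98 ± 0.22 in Tln1 VPA and 5.17 ± 0.14 in Tln1 vehicle, and the membrane-bound collagenase gene Mmp14 averaged 6.47 ± 0.10 in Tln1 VPA and 6.21 ± 0.33 in Tln1 vehicle (SD, n = 3 each). Mmp9, the second gelatinase gene, varied by 0.15 over all 8 arrays, at a mean of 4.11.

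Other genes of these pathways, taken from lists set up with earlier results of these data known, showed few differences between Tln1 VPA and Tln1 vehicle. Of 31 measured genes of TGF-beta activation and signalling, 0 were higher with an unadjusted p below 0.05 and 1 was lower (0.834% and 0.428% of all genes). That gene was Smad6, an inhibitory Smad, at 6.51, 6.83 and 6.71 on Tln1 VPA 1 to 3, against 7.21, 6.93 and 7.41 on Tln1 vehicle 1 to 3 (difference -0.50, SE 0.15, limma unadjusted p = 0.0123, adjusted p = 1, and 0.281 to 1 over 19 alternatives). Its groups did not overlap. Of 22 genes of collagen synthesis and processing and of 17 other proteases, inhibitors and proteoglycans, none had such a p. In all 3 comparisons, 0 genes of these lists were called over all genes.

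Markers of other cells differed beside these differences, and their part in them was not tested. Of 15 macrophage and myeloid markers, 14 were higher in Tln1 VPA than in Tln1 vehicle, and the mean of the list was 4.88 to 5.96 in Tln1 VPA and 4.66 to 5.29 in Tln1 vehicle, with 8 of the 15 above the median gene mean. Of 13 mesangial and smooth muscle markers, 12 were lower, and the mean was 7.11 to 7.14 in Tln1 VPA and 7.33 to 7.47 in Tln1 vehicle. Of 16 fibroblast and myofibroblast markers 7 were higher and 9 lower, and their mean was 5.65 to 5.85 in Tln1 VPA and 5.60 to 6.15 in Tln1 vehicle, with 10 of the 16 above the median gene mean. This list shares Acta2, Tagln, Cnn1 and Myh11 with the mesangial list and Tcf21 with the podocyte list, so these counts are not separate. Cxcl12, a chemokine of stromal cells, had 7.61, 7.88 and 7.55 on Tln1 VPA 1 to 3, against 7.90, 8.03 and 8.10 on Tln1 vehicle 1 to 3. It was the only fibroblast marker with an unadjusted p below 0.05 (difference -0.33, SE 0.13, limma unadjusted p = 0.0341, adjusted p = 1, and 0.578 to 1 over 19 alternatives), and its difference was -0.17 with array weights and -0.21 in the first array set alone. Of 14 endothelial markers 13 were lower, of 13 podocyte markers 11, and of 16 proximal tubule markers 14. An unadjusted limma p below 0.05 was found for 3 macrophage and myeloid markers, all higher, and for 2 mesangial and 2 endothelial markers, all lower. No podocyte or proximal tubule marker had one. Of all genes, 0.834% were higher and 0.428% lower by this measure. Cd68 (0.65), Itga8 (-0.84) and Ehd3 (-0.95) had the smallest p of those 3 lists, and their groups did not overlap.

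**Figure D2:**
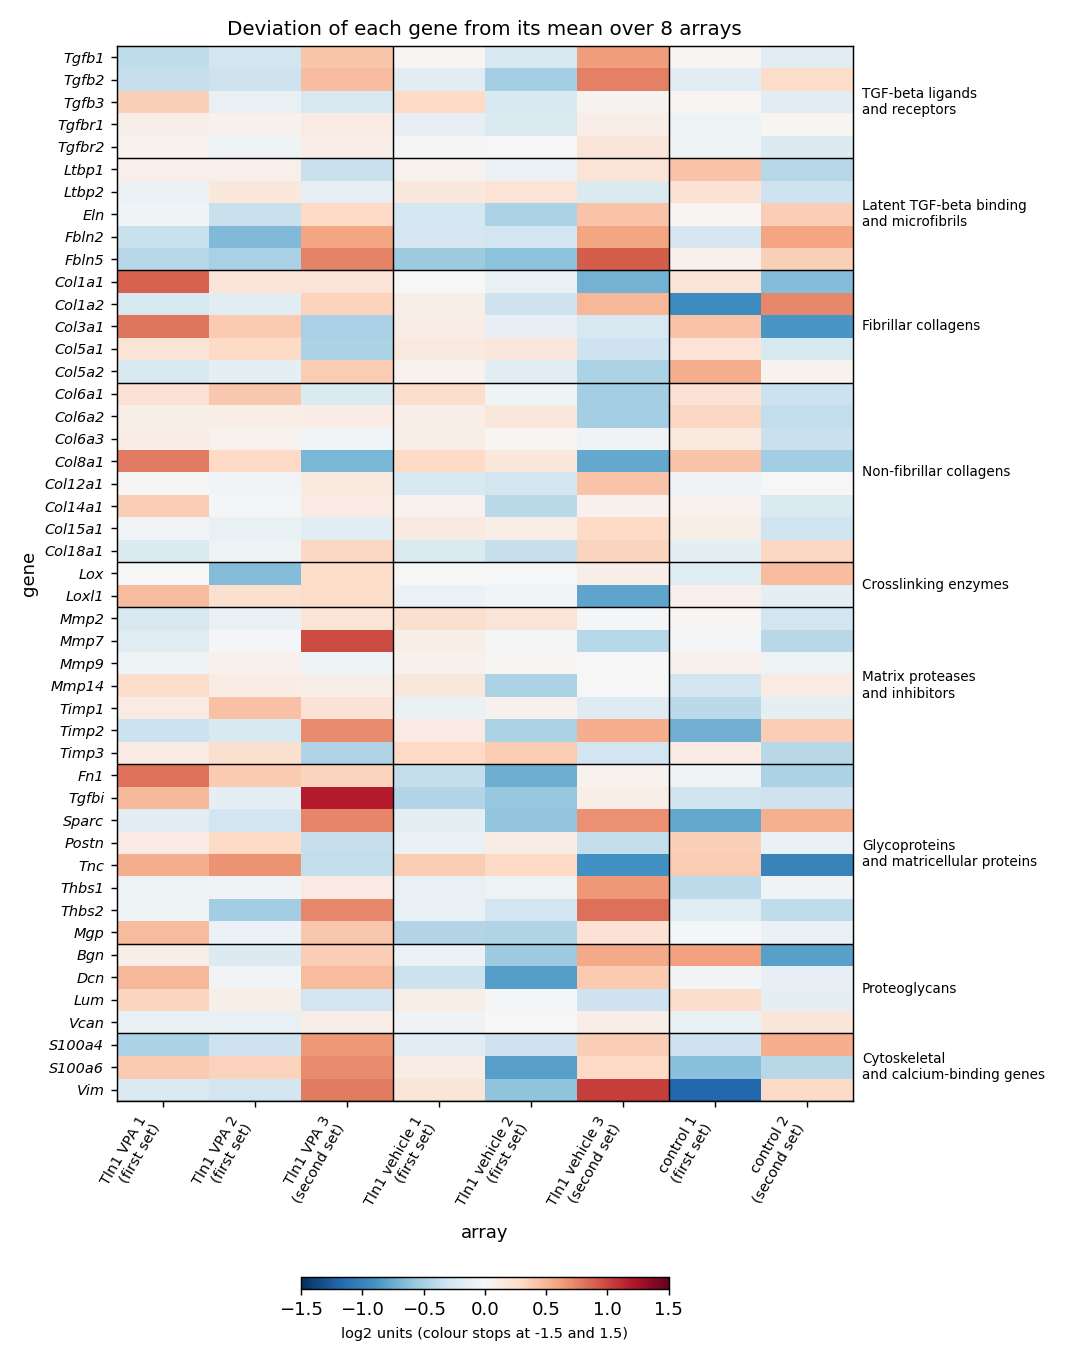
Deviation of each of the 47 genes (rows, grouped by role) from its own mean over 8 arrays, in log2 units, with 1 column per array, ordered Tln1 VPA, Tln1 vehicle, control. Red is above and blue below the gene's mean. Fn1 and Timp1 are red in all 3 Tln1 VPA columns, and many rows, such as Fbln5, Sparc, Tnc and Col8a1, differ more between the array sets than between the groups.

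The comparison of Tln1 VPA with control spans the genetic change, the 2 weeks of treatment and valproic acid. S100a6, Fn1 and Timp1 had the smallest p, all higher in Tln1 VPA. An unadjusted p below 0.05 was found for 3 members among the higher and 0 among the lower, where 1.23% and 0.640% of all genes had one (1.87% in both directions). Arrays did not overlap for 6 members, all higher in Tln1 VPA (of all genes, 5.57% were higher in this way, 3.98% lower and 9.55% either): Tgfbr1, Loxl1, Timp1, Fn1, Tgfbi and S100a6. No gene was called by limma (0% of all genes). Of the 47 members, 33 were higher, where 56.8% of all genes were, and the median difference was 0.13 over the members and 0.02 over all genes. This comparison shares the Tln1 VPA arrays with the one above. Blocking on the array set, 8 members and 8.12% of all genes had an unadjusted p below 0.05. With the replicate number as a block, 11 members and 9.82% of all genes did. That block joins control 2 of the second set with first-set Tln1 arrays, so it cuts across the array sets. Without Tln1 vehicle 3, whose spread enters the same fit, 5 members and 2.35% of all genes had such a p. The median difference of the members was 0.23 without control 1 and 0.05 in the first array set alone, where that of all genes was 0.10 and 0.00.

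S100a6 stood at 6.50, 6.45 and 6.82 on Tln1 VPA 1 to 3, against 5.48 and 5.69 on control 1 and 2. The difference was 1.00 (SE 0.32, limma unadjusted p = 0.0138, adjusted p = 1, and 0.346 to 1 over 19 alternatives), with 0.99 within the first array set and 1.13 in the second. Fn1 had 6.05, 5.63 and 5.57 on Tln1 VPA 1 to 3, against 5.18 and 4.76 on control 1 and 2, a difference of 0.78 (SE 0.27, limma unadjusted p = 0.0194, adjusted p = 1, and 0.438 to 1 over 19 alternatives). It was 0.66 within the first array set and 0.81 in the second. For Timp1, whose values are given above, the difference was 0.53 (SE 0.15, limma unadjusted p = 0.00851, adjusted p = 1, and 0.328 to 1 over 18 alternatives), with 0.68 and 0.37 in the sets. S100a6 and Fn1 were the members higher by at least 0.5 in both array sets, where 0.514% of all genes were higher, 0.415% lower and 0.929% either.

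The differences of Col1a1 and Col3a1 changed when a control array was left out. Control 1 is of the first array set and control 2 of the second, so leaving either out also unbalances the sets. Within the first and second sets, Col1a1 was higher in Tln1 VPA by 0.35 and 0.84, and Col3a1 by 0.17 and 0.39. Each of these rests on a single control array. Col1a1 had 5.91 on control 1 and 5.07 on control 2, and Col3a1 had 5.30 and 4.0. Against these, Col1a1 was higher in Tln1 VPA by 0.65 (SE 0.34, limma unadjusted p = 0.0944, adjusted p = 1, and 0.402 to 1 over 19 alternatives), by 1.07 without control 1, by 0.24 without control 2 and by 0.42 without Tln1 VPA 1. Col3a1 differed by 0.46 (SE 0.45, limma unadjusted p = 0.343, adjusted p = 1, and 0.525 to 1 over 18 alternatives), by 1.11 without control 1, by -0.19 without control 2, by 0.17 without Tln1 VPA 1 and by 0.82 without Tln1 VPA 3. Tgfb1 had 6.85 on control 1 and 6.65 on control 2 and differed by -0.01 (SE 0.31, limma unadjusted p = 0.974, adjusted p = 1, and 0.446 to 1 over 19 alternatives).

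Among the other pathway genes, 1 of 31 in TGF-beta activation and signalling and 1 of 22 in collagen synthesis had an unadjusted p below 0.05. Both were higher in Tln1 VPA, where 1.23% of all genes were higher by this measure and 0.640% lower. Ccn2, the TGF-beta and YAP target also called connective tissue growth factor, had 7.91, 8.17 and 9.04 on Tln1 VPA 1 to 3, against 7.37 and 7.56 on control 1 and 2 (difference 0.91, SE 0.37, limma unadjusted p = 0.0400, adjusted p = 1, and 0.311 to 1 over 19 alternatives, and 0.57 without Tln1 VPA 3). Ccn2 has a second, dimmer probe set that lay between 4.06 and 4.75 on all arrays and differed by -0.07, and the mean of both differed by 0.42. Plod2, a lysyl hydroxylase that sets collagen crosslinks, had 7.63, 7.87 and 8.39 on Tln1 VPA 1 to 3, against 6.79 and 7.45 on control 1 and 2 (difference 0.84, SE 0.33, limma unadjusted p = 0.0368, adjusted p = 1, and 0.208 to 1 over 19 alternatives, and 0.51 without control 1). Neither gene's groups overlapped. On Tln1 vehicle 1 to 3, Ccn2 had 8.19, 7.67 and 8.58 and Plod2 had 7.79, 7.39 and 8.28. Macrophage markers were higher for 14 of 15 genes here too, with list means of 4.88 to 5.96 in Tln1 VPA and 4.98 to 5.02 in control. Podocyte markers were lower for 11 of 13 genes, with list means of 7.08 to 8.24 in Tln1 VPA and 7.03 to 8.82 in control, and the part of either was not tested.

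Tln1 vehicle against control set the line under vehicle beside the controls, and few matrix genes separated the groups. No member had an unadjusted p below 0.05 (1.45% of all genes did, 0.780% higher and 0.672% lower), no gene was called by limma (0% of all genes), and the median difference was 0.00 over the members and 0.02 over all genes. Of the 47 members, 24 were higher, where 55.6% of all genes were. Blocking on the array set, 3 members and 7.30% of all genes had such a p, blocking on the replicate number 3 members and 8.25%, and without control 2, 2 members and 2.84%. Arrays did not overlap for 2 members, Tgfbr2 and Col15a1, both higher in Tln1 vehicle (of all genes, 4.78% were higher in this way, 3.59% lower and 8.37% either). The control arrays are those of the comparison before, so the replicate block cuts across the array sets here too.

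Tgfbr2 had 7.91, 7.94 and 8.13 on Tln1 vehicle 1 to 3, against 7.87 and 7.73 on control 1 and 2, so that Tln1 vehicle 1 and control 1 were nearly level. Col15a1 had 5.03, 4.99 and 5.20 on Tln1 vehicle 1 to 3, against 4.98 and 4.60 on control 1 and 2. Vim was higher by 0.96 in the first array set and 0.76 in the second, with 10.02, 9.23 and 10.88 on Tln1 vehicle 1 to 3, against 8.66 and 10.12 on control 1 and 2. Over all arrays the groups overlapped, since control 2 exceeded Tln1 vehicle 1 and 2. The second probe set of Vim had 7.74, 7.21 and 8.27 on Tln1 vehicle 1 to 3, against 7.23 and 7.78 on control 1 and 2. It differed by only 0.23 over all arrays, where the kept one differed by 0.65. Col5a2 was the one member lower by at least 0.5 in both sets, with differences of -0.60 and -0.52 and 5.42, 5.20 and 4.90 on Tln1 vehicle 1 to 3, against 5.92 and 5.42 on control 1 and 2. Of all genes, 0.338% were higher and 0.401% lower by at least 0.5 in both sets, 0.739% in all.

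Of the genes described in every comparison, Tgfb1 had 6.84, 6.58 and 7.45 on Tln1 vehicle 1 to 3, against 6.85 and 6.65 on control 1 and 2, a difference of 0.20 (SE 0.31, limma unadjusted p = 0.538, adjusted p = 1, and 0.798 to 1 over 19 alternatives). It was -0.15 within the first array set and 0.80 in the second. Fn1 differed by -0.08 (SE 0.27, limma unadjusted p = 0.774, adjusted p = 1, and 0.555 to 1 over 19 alternatives), with -0.49 within the first array set and 0.54 in the second. Col1a1 differed by -0.05 (SE 0.34, limma unadjusted p = 0.899) and Col3a1 by 0.13 (SE 0.45, limma unadjusted p = 0.780), both with an adjusted p of 1, with -0.44 and 0.63 in the sets for Col3a1. The sign of each of these 4 differences turned under some alternative. Bgn differed in opposite directions in the sets, at -0.94 and 1.38. It had 9.31, 8.85 and 9.97 on Tln1 vehicle 1 to 3, against 10.02 and 8.59 on control 1 and 2.

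Mesangial and smooth muscle markers were higher in Tln1 vehicle than in control for 11 of 13 genes, with list means of 7.33 to 7.47 in Tln1 vehicle and 6.83 to 7.16 in control, and their part in the matrix genes was not tested. Of these 13, 4 were higher at an unadjusted limma p below 0.05 and 0 were lower (0.780% and 0.672% of all genes). They were Itga8 by 1.17, Des by 1.06, Sfrp2 by 0.92 and Pdgfrb by 0.74. Among TGF-beta activation and signalling genes, Smurf2, a ubiquitin ligase that turns over Smads and receptors, was the only one with an unadjusted p below 0.05. It had 8.77, 8.78 and 8.70 on Tln1 vehicle 1 to 3, against 8.45 and 8.53 on control 1 and 2, without overlap (difference 0.26, SE 0.11, limma unadjusted p = 0.0425, adjusted p = 1, and 0.365 to 1 over 19 alternatives). No gene of collagen synthesis, of the other proteases and proteoglycans, or of the fibroblast markers had such a p.

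**Figure D3:**
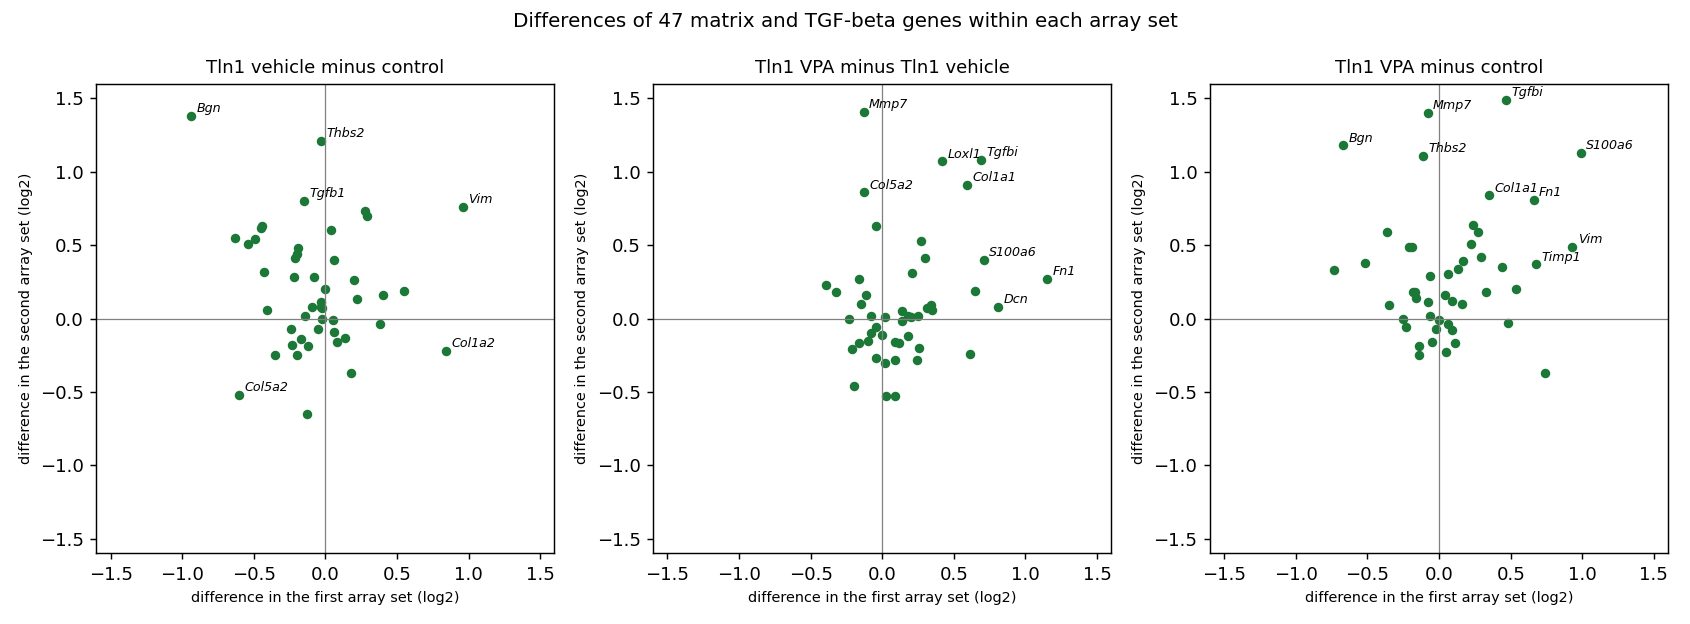
Difference between groups within the first array set (horizontal axis) and within the second (vertical axis), in log2 units, for each of 47 genes, with 1 panel per comparison. Points in the upper right or lower left have the same direction in both sets. Tgfbi and Col1a1 lie at 0.69 and 1.08 and at 0.59 and 0.91 for Tln1 VPA minus Tln1 vehicle, whereas Bgn lies at -0.94 and 1.38 for Tln1 vehicle minus control.

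Many members differed between the array sets. The sets were found from all genes, members included, so these values are a description. The sets did not overlap for 13 members that were higher in the second set (27.7% of members, 13.2% of all genes) and for 10 that were lower (21.3% of members, 36.6% of all genes). Higher in the second set were Vim by 1.13, the elastic fibre genes Fbln5 by 1.07 and Fbln2 by 0.95, Sparc by 1.04, and Timp2 by 0.87. Lower were Tnc, at -1.21, Col8a1 at -1.06, Col3a1 at -0.85 and Timp3 at -0.62. The 2 chains of type I collagen parted, with Col1a1 at -0.62 and Col1a2 at 0.84 in the second set relative to the first. Fn1, Timp1 and Mmp9 differed little, at -0.04, -0.06 and -0.08.

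**Figure D4:**
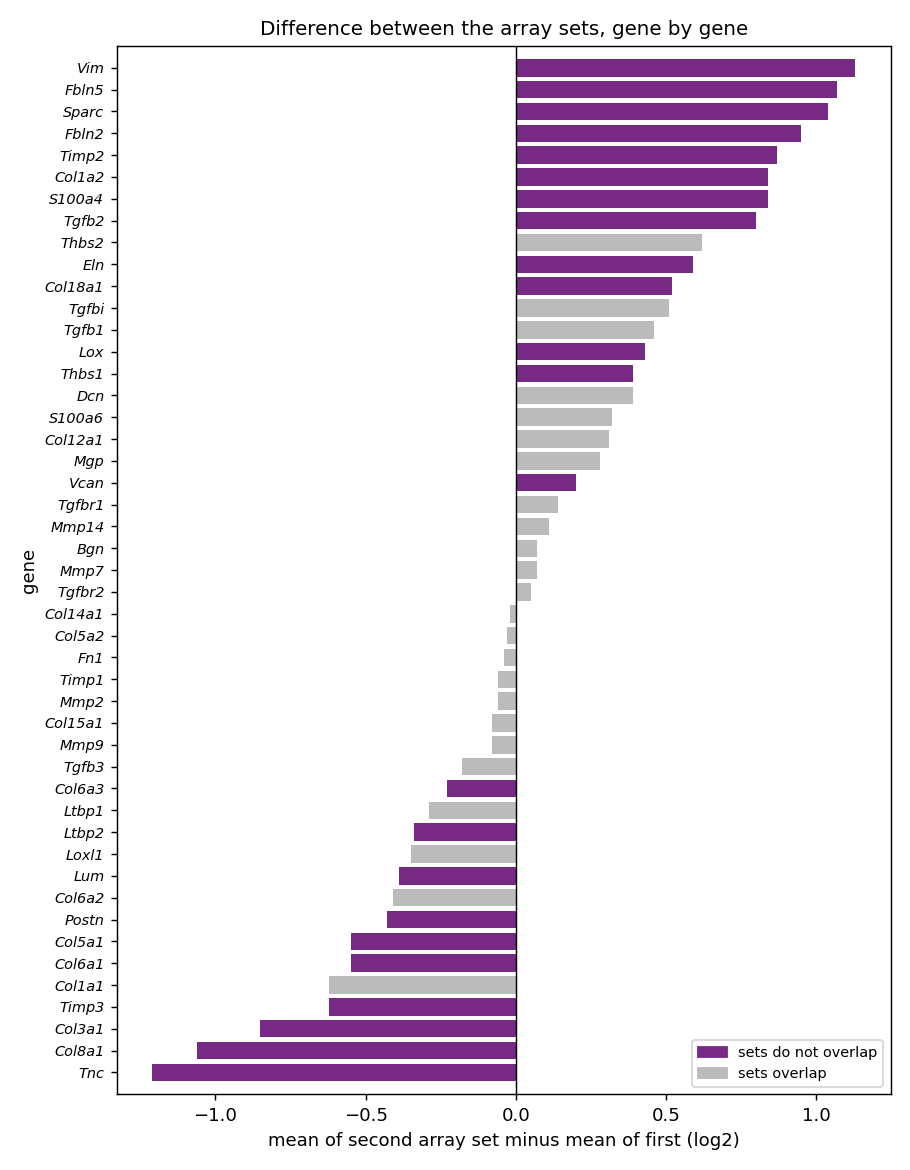
Mean of the 3 second-set arrays minus mean of the 5 first-set arrays (horizontal axis, log2 units) for each of 47 genes. Purple bars mark genes whose arrays do not overlap between the sets. Vim is highest at 1.13 and Tnc lowest at -1.21, and Fn1 lies near 0.

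A second single-symbol probe set was present for 6 members (Bgn, Col1a2, Col5a1, Col6a1, Mmp7 and Vim). For 4 of them the 2 probe sets differed in sign in at least 1 comparison. The kept probe set of Bgn had 9.49, 9.20 and 9.77 on Tln1 VPA 1 to 3, beside the Tln1 vehicle and control values above. Its dimmer probe set had 6.70, 6.33 and 6.65 on Tln1 VPA 1 to 3, 6.34, 6.30 and 6.67 on Tln1 vehicle 1 to 3, and 6.99 and 6.04 on control 1 and 2. That of Col1a2 lay between 2.97 and 3.24 on all arrays, that of Col5a1 between 3.19 and 3.77, and that of Col6a1 between 3.34 and 3.67. The kept probe set of Col5a1 had 5.27, 5.36 and 4.59 on Tln1 VPA 1 to 3, 5.21, 5.23 and 4.75 on Tln1 vehicle 1 to 3, and 5.27 and 4.82 on control 1 and 2. That of Col6a1 had 5.47, 5.65 and 5.05 on Tln1 VPA 1 to 3, 5.51, 5.18 and 4.74 on Tln1 vehicle 1 to 3, and 5.47 and 4.93 on control 1 and 2. Fn1, Tgfbi, Loxl1, Timp1 and S100a6 had 1 such probe set each, so no second probe set checks them.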

How the data were processed

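The deposited values are log2 expression values that the authors made with RMA, and limma is also named, per the submitters' processing notes. The sources used here give no versions, annotation or build, and it is unknown which arrays were normalised together. The table holds 41345 probe sets on 8 arrays, with values between 1.49 and 13.9, uncentred per gene. Of these, 23521 had 1 gene symbol, 1814 several and 16010 none in the platform annotation. The probe set with the highest mean was kept per gene (22180 genes).

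A single limma model with group as its term (lmFit, eBayes, two-sided) gave all comparisons in R 4.3.3 with limma 3.58.1, Benjamini-Hochberg adjusted over all genes, with a call at an adjusted p below 0.05. Full statistics are given for members with an unadjusted p below 0.05 (at most 8 per direction) and for Tgfb1, Fn1, Col1a1 and Col3a1, and for pathway genes among the 4 with the smallest p of their list. Other genes named, and the 0.5 threshold in both sets, were chosen after values were seen. The members and lists were chosen with earlier results of these data known. Array sets came from average-linkage clustering of correlations. In simulated arrays, limma called 47% of the 100 genes given a change of 1 log2 unit and 87% of the 100 given 2 for Tln1 VPA against Tln1 vehicle, 36% and 84% for Tln1 VPA against control, and 41% and 85% for Tln1 vehicle against control. The simulated noise was drawn independently for each gene and array, without the array sets. These shares therefore need not hold for the real arrays.

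Same-numbered Tln1 VPA and Tln1 vehicle arrays moved together around the means of their groups (r = 0.570, 0.609 and 0.787 over all genes). The differently numbered first-set arrays gave 0.510 and 0.515, also positive. The correlation therefore cannot tell pairing by number from a shared array set. No pairing is stated in the labels, and the main model takes none. Control and Tln1 groups share 2 numbers, with r from -0.591 to 0.609, and were not taken as paired. Number 2 joins control 2 of the second array set with Tln1 VPA 2 and Tln1 vehicle 2 of the first. In comparisons with control the replicate block therefore cuts across the array sets. Figures used matplotlib 3.10.9 in Python 3.11.15. The number of arrays limits the precision.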

Additional observations from a re-analysis of the deposited data

How the results depend on the processing

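Under 11 other settings and with each of the 8 arrays left out, no member was called in any comparison, and the replicate block called 4 genes for Tln1 vehicle against control and 1 for Tln1 VPA against control, none of them a member. Of the genes given with full statistics, those not listed here kept their direction under all alternatives. Other genes were not refitted under them, and some, such as Bgn, Thbs2 and Mmp7, differ in sign between the array sets in at least 1 comparison. In comparisons with control, the replicate block cuts across the array sets. The cause of the shifts below was not tested.

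Members with an unadjusted p below 0.05, with the share of all genes under the same setting: for Tln1 VPA against Tln1 vehicle (main 4, 1.26%), 10 with array weights (10.7%), 8 with the replicate block (3.06%), 10 after blocking on the array set (5.43%), 10 in the first array set alone (7.75%) and 2 to 7 with an array left out (0.789% to 2.99%). For Tln1 VPA against control (main 3, 1.87%), 11 with the replicate block (9.82%), 8 after blocking on the array set (8.12%), 6 in the first set alone (12.7%) and 2 to 5 with an array left out (1.27% to 3.41%). For Tln1 vehicle against control (main 0, 1.45%), 3 with the replicate block (8.25%), 3 after blocking on the array set (7.30%), 6 in the first set alone (12%) and 0 to 2 with an array left out (0.965% to 3.63%).

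Members whose arrays did not overlap: for Tln1 VPA against Tln1 vehicle (main 6, 3.55% of all genes), 24 in the first set alone (34.2%) and 6 to 15 with an array left out (7.32% to 20.3%). For Tln1 VPA against control (main 6, 9.55%), 30 (66.3%) and 6 to 28 (14.3% to 45.6%). For Tln1 vehicle against control (main 2, 8.37%), 36 (67.7%) and 3 to 23 (12.7% to 44.0%), and 1 with only genes above the median gene mean (8.02%), 6 with quantile normalisation (10.4%) and 5 with centring (10.1%). Fewer arrays make a gap more likely by construction.

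For Tln1 vehicle against control, Tgfb1 turned to -0.05 with the replicate block and -0.15 in the first set alone (-0.05 to 0.39 with an array left out). Fn1 ranged from -0.29 to 0.13 with an array left out. Col1a1 turned to 0.19 with array weights and 0.12 with the replicate block (-0.46 to 0.37 with an array left out). Col3a1 turned to -0.01 after blocking on the array set and -0.44 in the first set alone (-0.52 to 0.78 with an array left out). For Tln1 VPA against Tln1 vehicle, Tgfb1 ranged from -0.46 to 0.04 with an array left out. For Tln1 VPA against control, Tgfb1 turned to 0.07 after blocking on the array set (-0.26 to 0.14 with an array left out), and Col3a1 ranged from -0.19 to 1.11.

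The replicate block changed no other call. Timp1 and Col3a1 lie below the median gene mean and have no value with only genes above it. Detection values were not used here, so signal over background is unknown for dim members such as Timp1.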

Other observations

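Some values stood out on 1 or 2 arrays. They were chosen after they had been seen, and single arrays were not tested. Mmp7, the gene of matrilysin, a protease of injured tubular epithelium, had 3.74, 3.90 and 4.90 on Tln1 VPA 1 to 3, against 4.0, 3.90 and 3.49 on Tln1 vehicle 1 to 3 and 3.90 and 3.50 on control 1 and 2. The high value belonged to Tln1 VPA 3 alone. Its second probe set had 2.96 on that array, within the range of 2.73 to 3.16 over all arrays. Mmp10, the gene of stromelysin 2, was likewise highest on Tln1 VPA 3, with 3.87, 3.31 and 4.70 on Tln1 VPA 1 to 3, against 3.66, 3.63 and 3.43 on Tln1 vehicle 1 to 3 and 3.66 and 3.40 on control 1 and 2. On the same array the macrophage and myeloid list had its highest mean, 5.96. Thbs2, the gene of thrombospondin 2, was at 6.58 on Tln1 VPA 3 and 6.68 on Tln1 vehicle 3, and at 5.34 to 5.79 on the other 6 arrays, control 2 of the same set included.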
